A study of Mus musculus with 76 samples.

Results

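The embryos described here form a factorial of 2 exposures, in which the mother, the father, both parents or neither had been given α-cypermethrin at the dose labelled 0.3. They were chosen by group label alone and make up 48 of the 76 libraries of the series, 12 in each of 4 groups. In Both_0.3Cyp the mother and the father were exposed, in Maternal_0.3Cyp the mother was exposed and the father had vehicle, in Paternal_0.3Cyp the father was exposed and the mother had vehicle, and in Ctrl both parents had vehicle. In every group the C57BL/6J parents were treated over 28 days before mating (7 days at first, then 3 cycles of 2 days off and 5 days on), and dorsal forebrain tissue was taken for RNA sequencing at embryonic day 16. Maternal_0.3Cyp held 6 female and 6 male embryos, as did Paternal_0.3Cyp, while Both_0.3Cyp and Ctrl each held 5 female and 7 male embryos. Batch 1 supplied 4 libraries of Maternal_0.3Cyp and 6 of each other group. The labels give no unit for the dose and no litter, so that littermates count as separate replicates and the p-values are too small if littermates resemble each other.

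α-Cypermethrin is a pyrethroid insecticide. Pyrethroids hold voltage-gated sodium channels open and so prolong the firing of nerve cells, in insects more than in mammals. In the dorsal forebrain at this age, radial glia divide along the ventricle and give rise to intermediate progenitors and neurons, which migrate outwards to form the cortical layers. A factorial design asks whether the exposure of one parent changes gene expression by the same amount whether or not the other parent is exposed. The interaction measures this on the log2 scale as Both_0.3Cyp minus Maternal_0.3Cyp minus Paternal_0.3Cyp plus Ctrl. It is 0 where the single exposures add up, and opposite in sign to the single exposures where the doubly exposed group moved by less than their sum.

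The 48 libraries had total counts from 17773173 to 27903588, and the 2 deepest libraries were both of Maternal_0.3Cyp. The defining markers of dorsal forebrain were present in every library, with lowest normalised levels of 194 CPM (counts scaled to a common library size) for Tbr1 and 24.3 CPM for Emx1. The Y-linked genes matched the labelled sex in all 48. Several libraries stood apart. Paternal_0.3Cyp replicates 3 and 4 and Both_0.3Cyp replicate 12 were high in embryonic globin RNA, while Paternal_0.3Cyp replicates 4, 6 and 9, Both_0.3Cyp replicate 10 and Ctrl replicate 3 were high in diencephalon markers. Paternal_0.3Cyp replicate 8 had the highest summed level of cytosolic ribosomal protein genes, 64880 CPM, where the group's median was 34420 CPM. In tissue RNA of this kind, fewer cells of a type and less RNA per cell cannot be told apart.

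Each exposed group differed from Ctrl in about the same number of genes, and hardly a gene was called between the exposed groups. Of 14339 genes tested, 3404 were called in Maternal_0.3Cyp against Ctrl (23.7%; 1564 higher and 1840 lower), 3961 in Paternal_0.3Cyp against Ctrl (27.6%; 2206 higher and 1755 lower) and 3202 in Both_0.3Cyp against Ctrl (22.3%; 1509 higher and 1693 lower), by edgeR's quasi-likelihood test at a Benjamini-Hochberg adjusted p under 0.05. These comparisons share the 12 Ctrl libraries, which enter the interaction with the opposite sign, so a shift of Ctrl alone would give like values in all 3 and an interaction of the opposite sign. In Both_0.3Cyp against Paternal_0.3Cyp, the mother's exposure on top of the father's, 2 genes were called (0.0139%), and in Both_0.3Cyp against Maternal_0.3Cyp none was (edgeR, lowest adjusted p = 1; 276 genes at an unadjusted p under 0.05, and 0 calls by DESeq2 and by limma). The 95% confidence interval lay wholly within 0.5 of 0 on the log2 scale for 86.1% of genes in Both_0.3Cyp against Paternal_0.3Cyp and for 86.9% in Both_0.3Cyp against Maternal_0.3Cyp. The number of calls against Ctrl changed with surrogate variables, which are estimated from the same expression values, and with the batch used. The cause was not tested. With 2 surrogate variables none was made in any of the 3 comparisons (edgeR; 1070, 1592 and 1445 genes at an unadjusted p under 0.05 for Maternal_0.3Cyp, Paternal_0.3Cyp and Both_0.3Cyp; DESeq2 without them called 3577, 4130 and 3460), and with batch 1 alone the counts were 0, 4 and 0, against 2313, 1313 and 1323 with batch 2 alone.

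**Figure D1:**
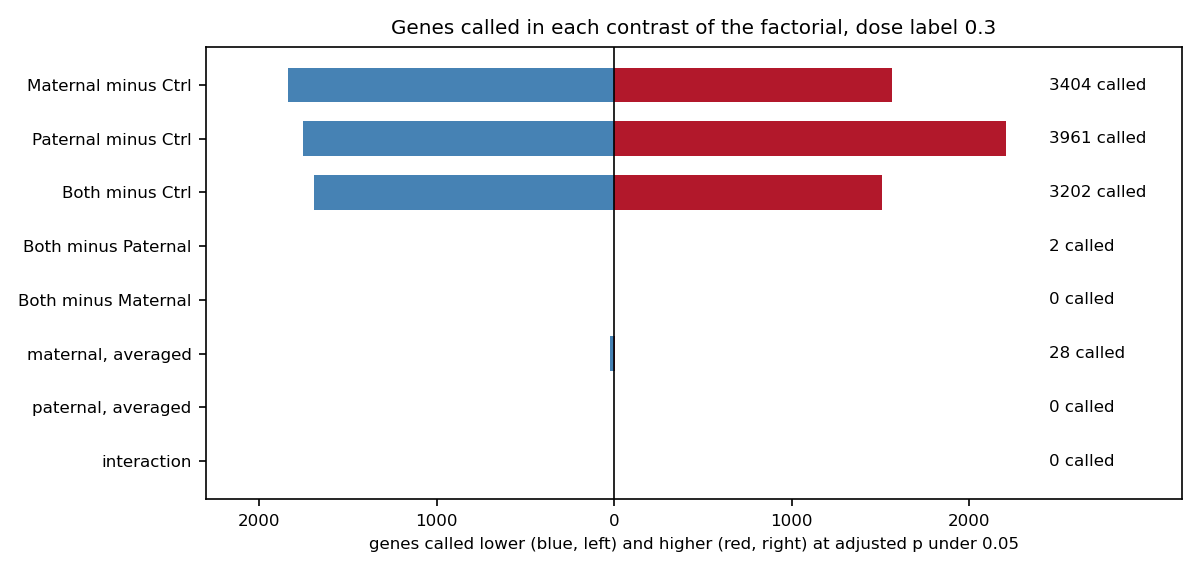
Number of genes called at an edgeR adjusted p under 0.05 in each contrast of the factorial, with genes called higher to the right (red) and lower to the left (blue). The 3 contrasts with Ctrl have 3202 to 3961 calls, while the contrasts between exposed groups, the averaged effects and the interaction have 0 to 28.

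The interaction had no called gene, yet many genes of low p. The lowest adjusted p was 0.051 (edgeR quasi-likelihood), and 3659 genes (25.5%) had an unadjusted p under 0.05, 1649 with a positive and 2010 with a negative interaction. The number called turned on the tool and on single libraries: DESeq2 called 410 genes and limma with quality weights 773, and edgeR called 1166 without Paternal_0.3Cyp replicate 9, 778 without Paternal_0.3Cyp replicate 2, 631 without Ctrl replicate 6 and 410 without Paternal_0.3Cyp replicate 1. With 2 surrogate variables 758 genes had an unadjusted p under 0.05, and edgeR called 0. The median absolute interaction was 0.14 on the log2 scale beside a median standard error of 0.11, and the 95% interval stayed within 0.5 of 0 for 66.2% of genes.

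The same exposure could be estimated a second time in libraries that were not used the first time. The mother's exposure was estimated from Maternal_0.3Cyp against Ctrl and again from Both_0.3Cyp against Paternal_0.3Cyp. The 1564 genes called higher in the first had a median log2 fold change of 0.22 there and of -0.02 in the second, where 36.9% had the same sign. The 1840 genes called lower had medians of -0.29 and -0.007, and 54.9% kept the sign. The father's exposure was estimated from Paternal_0.3Cyp against Ctrl and again from Both_0.3Cyp against Maternal_0.3Cyp. The 2206 genes called higher in the first had medians of 0.24 and 0.002, and 52.2% had the same sign. The 1755 called lower had medians of -0.25 and 0.009, and 42.0% kept the sign. Of the genes called in either first estimate, 0 were called in the second (edgeR; 19 and 33 of the mother's, and 18 and 13 of the father's, had an unadjusted p under 0.05 among those called higher and lower). Among all 14339 genes, 528 (3.7%) had such a p in the mother's second estimate and 276 (1.9%) in the father's. The sign was the same in 46.8% of all genes for the mother and in 47.7% for the father. Across all genes the Pearson correlation between the estimates was 0.06 for the mother and -0.09 for the father. It is given as a description over genes, which are not independent replicates.

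**Figure D2:**
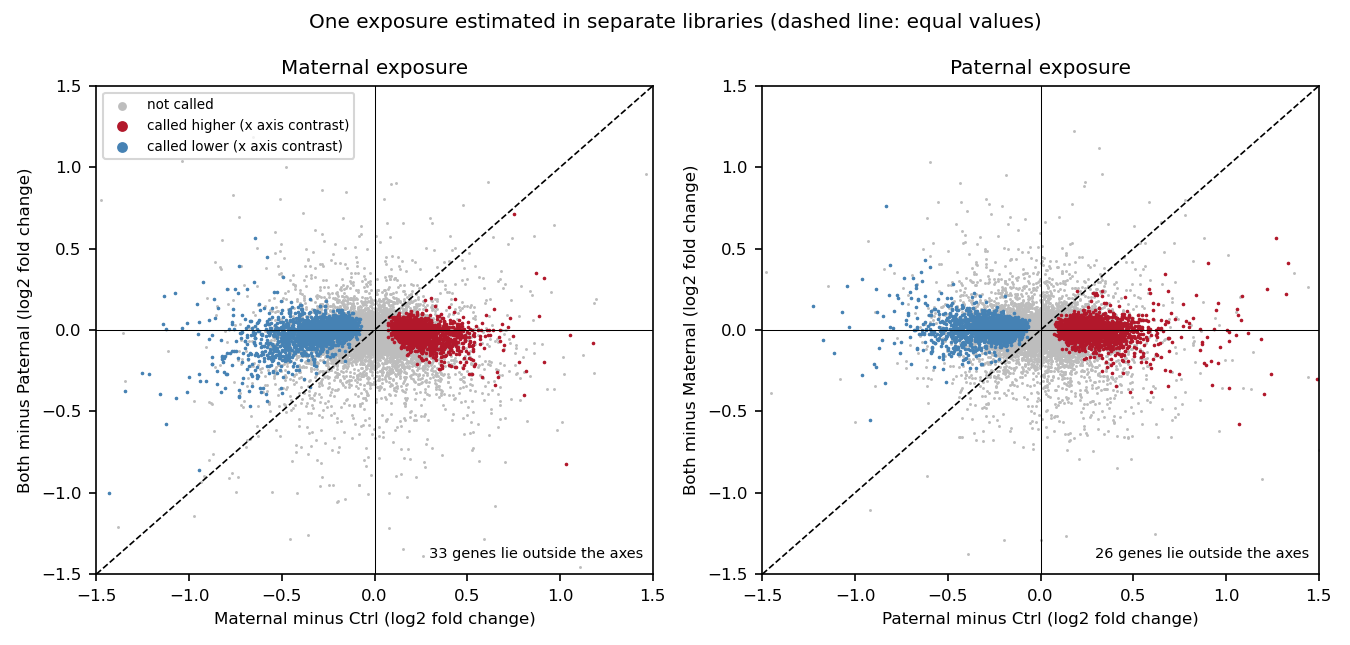
Log2 fold change of each gene for the mother's exposure (left panel) and the father's exposure (right panel), estimated in offspring of an unexposed partner (x axis) and of an exposed partner (y axis), with no library in common. Genes called on the x axis (red higher, blue lower) lie along the horizontal line at 0 and not along the dashed line of equal values; 33 genes of the left and 26 of the right panel lie outside the axes.

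The 10 genes of lowest interaction p, none of them called, had single exposures that moved one way and a doubly exposed group that lay near the singly exposed ones or between them and Ctrl. Scmh1 (ENSMUSG00000000085; mm10 chromosome 4, 120405281 to 120530186), a polycomb group protein that takes part in gene silencing, had the lowest p. Its lowest, median and highest levels were 55.2, 60.8 and 66.1 CPM in Both_0.3Cyp, 53.2, 57.8 and 62.9 CPM in Maternal_0.3Cyp, 46.8, 57.5 and 64.5 CPM in Paternal_0.3Cyp and 56.7, 67.8 and 76.5 CPM in Ctrl. The exposed groups overlapped each other almost fully, and all 36 of their libraries lay below the Ctrl mean. Scmh1 fell by 0.23 on the log2 scale after the mother's exposure and by 0.23 after the father's (SE 0.043 and 0.042, n = 12 against 12; edgeR adjusted p = 0.00218 and 0.00121). The sum of the single exposures was -0.46, whereas Both_0.3Cyp against Ctrl was -0.16 ± 0.042 (SE; adjusted p = 0.00984), which gave an interaction of 0.30 ± 0.060 (edgeR adjusted p = 0.051), 0.24 in batch 1 and 0.35 in batch 2.

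Klf5, a zinc finger transcription factor of proliferating epithelia and stem cells, showed the pattern at a low level. It had 4.06, 5.61 and 6.80 CPM (lowest, median and highest) in Both_0.3Cyp, 3.35, 5.43 and 6.21 CPM in Maternal_0.3Cyp, 2.85, 5.43 and 7.56 CPM in Paternal_0.3Cyp and 4.78, 7.93 and 9.82 CPM in Ctrl. The exposed medians nearly coincided, and Klf5 fell against Ctrl in each of them. The interaction was 0.79 ± 0.17 (edgeR adjusted p = 0.0756), the value that the genes of the 10 other than Scmh1 shared. Fgf14, a modulator of sodium channels at the start of the axon, had an interaction of 0.44 ± 0.099, and Phactr1, a regulator of actin and protein phosphatase, one of 0.32 ± 0.076. Dtx1, a regulator of Notch signalling (0.29 ± 0.067), and Aacs, which makes acetoacetyl-CoA for lipid synthesis (0.36 ± 0.086), completed the genes with a positive interaction and levels that fell in all 3 exposed groups.

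Clp1, Ptgr1 and Traip had negative interactions. Clp1, an RNA kinase of tRNA splicing and mRNA end formation, had 10.01, 11.8 and 13.4 CPM (lowest, median and highest) in Both_0.3Cyp, 9.79, 12.2 and 13.9 CPM in Maternal_0.3Cyp, 10.3, 12.5 and 19.5 CPM in Paternal_0.3Cyp and 7.93, 9.58 and 13.01 CPM in Ctrl. It rose in all 3 exposed groups, and the interaction was -0.52 ± 0.12. Ptgr1, a reductase of prostaglandins and leukotrienes, had medians of 2.49 CPM in Both_0.3Cyp, 3.11 CPM in Maternal_0.3Cyp, 2.62 CPM in Paternal_0.3Cyp and 2.10 CPM in Ctrl. It rose after either single exposure (0.58 ± 0.14 and 0.48 ± 0.14 for mother and father) but was not called in Both_0.3Cyp (0.20 ± 0.14, edgeR adjusted p = 0.321), with an interaction of -0.87 ± 0.20. Traip, a ubiquitin ligase of replication stress, was likewise called after the single exposures (0.28 and 0.29) and not in Both_0.3Cyp (0.11, edgeR adjusted p = 0.269), with an interaction of -0.46 ± 0.11.

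**Figure D3:**
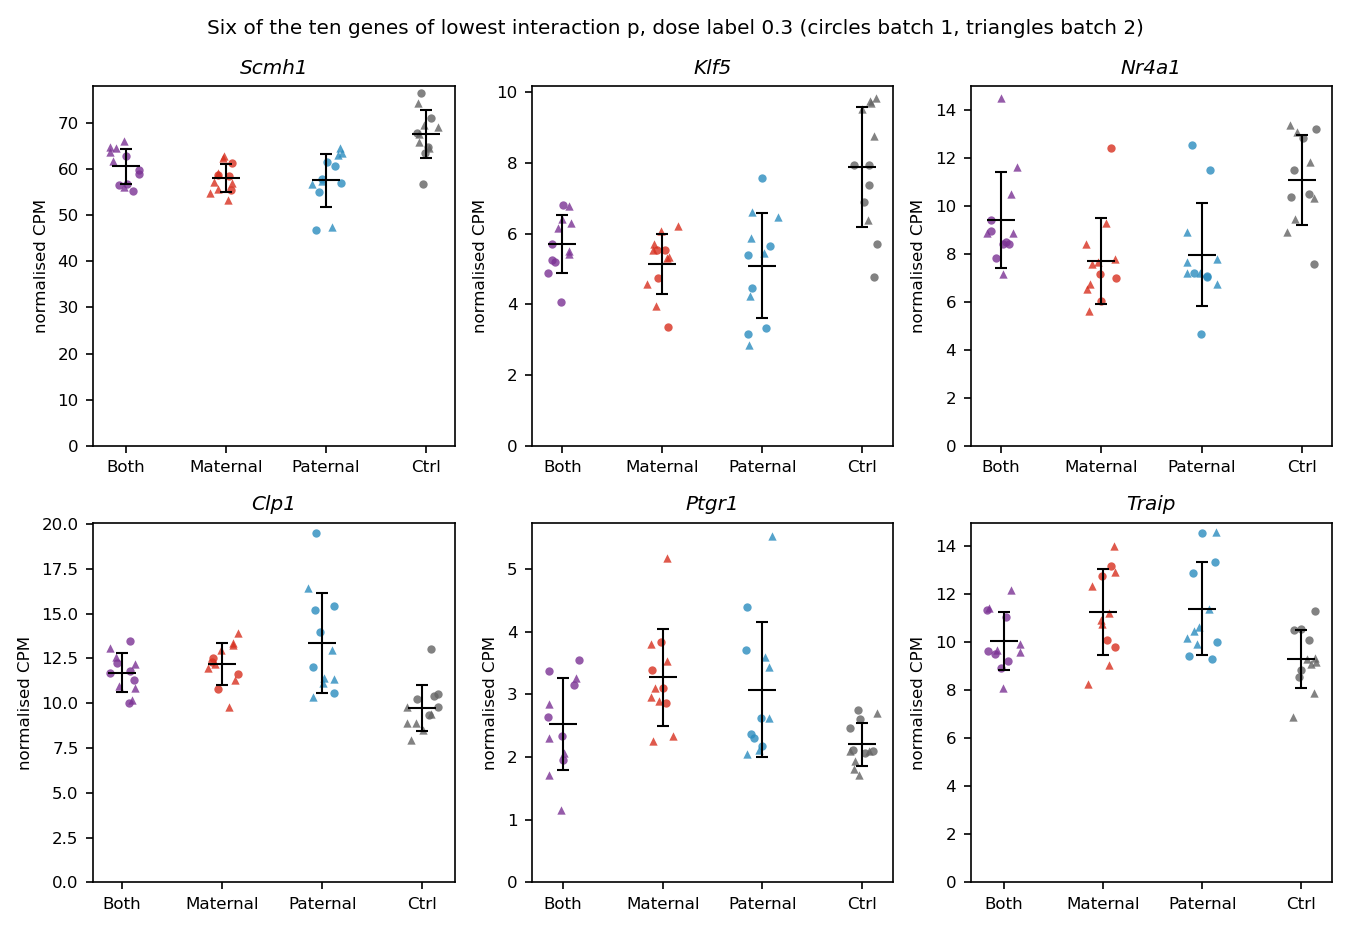
Normalised CPM of 6 of the 10 genes of lowest interaction p in each of the 48 libraries (circles batch 1, triangles batch 2), with the mean and SD of each group of 12 in black. For Scmh1 the 3 exposed groups have medians of 57.5 to 60.8 CPM and Ctrl 67.8 CPM; Clp1, Ptgr1 and Traip have their lowest median in Ctrl.

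Genes of cell division had the interaction median farthest from 0 among the 3 lists of 50 genes or more. All 55 mitosis and kinetochore genes tested had a negative interaction (median -0.44 on the log2 scale, against -0.02 over all genes), and 44 of them had an unadjusted p under 0.05, where 14% of all genes had a p under 0.05 with a negative interaction. The same list held 43 genes called higher in Maternal_0.3Cyp, 46 in Paternal_0.3Cyp and 44 in Both_0.3Cyp against Ctrl, where 10.9%, 15.4% and 10.5% of all genes were called higher, and 0 called in either comparison of Both_0.3Cyp with a singly exposed group (medians -0.03 and -0.005 against Paternal_0.3Cyp and Maternal_0.3Cyp; edgeR). Cks2, a partner of cyclin-dependent kinases needed to leave mitosis, had 16.2, 19.1 and 24.1 CPM (lowest, median and highest) in Both_0.3Cyp, 15.9, 18.9 and 24.6 CPM in Maternal_0.3Cyp, 11.5, 18.2 and 31.03 CPM in Paternal_0.3Cyp and 7.75, 13.03 and 22.7 CPM in Ctrl. Its median was nearly equal in the exposed groups and lower in Ctrl, and the groups overlapped. It rose by 0.59 in Both_0.3Cyp, 0.63 in Maternal_0.3Cyp and 0.62 in Paternal_0.3Cyp (SE 0.13 each). Both_0.3Cyp against Paternal_0.3Cyp was -0.03 (95% interval -0.29 to 0.23). Spc24, a kinetochore protein, had an interaction of -0.61 ± 0.16, and Cenpn, which binds centromeric chromatin, one of -0.56 ± 0.16.

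The 250 bases before the start of Cks2 and of Nr4a1, an immediate early gene described further on, are shown as examples of a gene that rose and of one with a positive interaction (RefSeq, GRCm38.p6, plus strand, 5′ to 3′). Cks2 lies at chr13:51644982-51645231, and its capitals mark CCAAT boxes, sought as CCAAT on both strands, which many promoters of cell cycle genes hold. Nr4a1 lies at chr15:101266596-101266845, and its capitals mark TGACG on both strands, the core of the cyclic AMP response element.
Cks2: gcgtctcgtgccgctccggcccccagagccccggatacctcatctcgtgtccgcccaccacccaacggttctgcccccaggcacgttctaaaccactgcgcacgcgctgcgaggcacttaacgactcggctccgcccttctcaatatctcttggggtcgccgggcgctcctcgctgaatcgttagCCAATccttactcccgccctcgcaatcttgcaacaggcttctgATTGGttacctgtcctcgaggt
Nr4a1: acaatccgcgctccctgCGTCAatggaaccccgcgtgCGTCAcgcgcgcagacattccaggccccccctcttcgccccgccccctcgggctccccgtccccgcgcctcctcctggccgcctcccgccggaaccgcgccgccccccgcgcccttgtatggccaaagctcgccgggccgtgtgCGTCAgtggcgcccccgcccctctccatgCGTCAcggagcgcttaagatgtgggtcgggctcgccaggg
The Cks2 window holds 2 matches, and 33.8% of all 32851 RefSeq windows of this length hold at least 1 and 10.1% at least 2. The Nr4a1 window holds 4 matches of TGACG, where 17.8% of windows hold at least 1 and 0.137% at least 4. A match is a description of the sequence and not a binding site shown here.

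Progenitor genes had interactions of the same sign as division genes. All 50 DNA replication genes had a negative interaction (median -0.34, 37 at an unadjusted p under 0.05), and 39, 44 and 38 of them were called higher in Maternal_0.3Cyp, Paternal_0.3Cyp and Both_0.3Cyp against Ctrl. Over all genes, 14% had a negative interaction at such a p. The shares of all genes called were 10.9%, 15.4% and 10.5% higher and 12.8%, 12.2% and 11.8% lower. Of 17 intermediate progenitor and proneural genes, 11, 12 and 9 were called higher and 1 lower in those 3 comparisons with Ctrl, and 15 had a negative interaction. Neurod4, a proneural transcription factor, had medians of 4.31 CPM in Both_0.3Cyp, 4.77 CPM in Maternal_0.3Cyp, 4.37 CPM in Paternal_0.3Cyp and 2.75 CPM in Ctrl, and rose in all 3 (0.53, 0.69 and 0.65; SE 0.15 each). Its interaction was -0.82 ± 0.21, with -0.82 in batch 1 and -0.77 in batch 2. Among 17 radial glia genes, 6 to 8 were called higher and 1 lower against Ctrl, among them Vim, the filament protein vimentin, and Hes1, a Notch target that keeps progenitors from turning into neurons (interactions -0.46 ± 0.14 and -0.66 ± 0.18).

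These gene groups moved with the libraries named above. The summed mitosis genes reached 2612 CPM in Both_0.3Cyp (lowest 1774, median 1941), 2153 CPM in Maternal_0.3Cyp (lowest 1849, median 2026), 3454 CPM in Paternal_0.3Cyp replicate 4 (group lowest 1297, median 1998) and 2394 CPM in Ctrl (lowest 1180, median 1445). When the libraries with much embryonic globin RNA were left out, the median interaction of the mitosis and kinetochore genes was -0.27 and 20 were called in Paternal_0.3Cyp against Ctrl; with the globin ratio as a covariate it was -0.18, and with 2 surrogate variables -0.04. With batch 1 alone it was -0.44, and with batch 2 alone -0.47. Without Paternal_0.3Cyp replicate 4, 30 mitosis and kinetochore genes and 28 DNA replication genes were called in Paternal_0.3Cyp. Without Ctrl replicate 3, 23 DNA replication genes were called in Both_0.3Cyp, and 4 intermediate progenitor genes in Maternal_0.3Cyp. Calls over all genes in Both_0.3Cyp against Ctrl also fell in that fit, from 3202 to 2042. Of 12 erythroid genes, 3, 8 and 2 were called higher in Maternal_0.3Cyp, Paternal_0.3Cyp and Both_0.3Cyp against Ctrl, where 10.9%, 15.4% and 10.5% of all genes were. The median interaction of the erythroid genes was -0.31. Their part in the interaction was not tested.

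Genes of protein synthesis and respiration had smaller interactions of the same sign. All 81 cytosolic ribosomal protein genes had a negative interaction (median -0.22, 59 at an unadjusted p under 0.05), and 29, 68 and 38 were called higher in Maternal_0.3Cyp, Paternal_0.3Cyp and Both_0.3Cyp against Ctrl. The nuclear complex I subunits, of the first enzyme of the respiratory chain, counted 4, 31 and 5 of 37 called higher, and the subunits of complexes III to V counted 6, 29 and 8 of 35. Over all genes, 10.9%, 15.4% and 10.5% were called higher, so that 4 and 5 of 37 lay near that share. A negative interaction at an unadjusted p under 0.05 was found for 14% of all genes. The counts in Paternal_0.3Cyp rested on replicate 8 of that group. In that library the complex I subunits summed to 4308 CPM (group median 2308 CPM) and those of complexes III to V to 9736 CPM (group median 6006 CPM). Without it, 23 ribosomal protein genes, 9 complex I subunits and 8 subunits of complexes III to V were called higher in Paternal_0.3Cyp against Ctrl. The same fit called 73, 26 and 26 in Maternal_0.3Cyp and 75, 30 and 30 in Both_0.3Cyp, and the median interactions were -0.11, -0.09 and -0.08. Over all genes, higher and lower together, that fit called 4607 in Maternal_0.3Cyp, 2262 in Paternal_0.3Cyp and 4401 in Both_0.3Cyp against Ctrl. With replicate 8 these all-gene counts were 3404, 3961 and 3202, so calls in general moved the same way. Rps29, a protein of the small ribosomal subunit, rose in Both_0.3Cyp (0.38 ± 0.11), Maternal_0.3Cyp (0.33 ± 0.11) and Paternal_0.3Cyp (0.52 ± 0.11). Its highest level was 283 CPM in Paternal_0.3Cyp replicate 8, where the group's median was 120 CPM and the highest Ctrl library had 116 CPM. Ndufa6, a complex I subunit, rose after the single exposures (0.24 and 0.36) and had 0.20 ± 0.079 in Both_0.3Cyp (edgeR adjusted p = 0.053). Without replicate 8 the interaction was -0.31 for Rps29 and -0.27 for Ndufa6, against -0.47 and -0.40 with it. Ribosomal protein genes have many processed pseudogenes, with which the estimated counts can share reads.

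Genes of nerve cell excitability and of synapses had positive interactions. Of 12 voltage-gated sodium channel genes tested, the known targets of pyrethroids and their relatives, 8 were called lower in Maternal_0.3Cyp, 6 in Paternal_0.3Cyp and 7 in Both_0.3Cyp against Ctrl, where 12.8%, 12.2% and 11.8% of all genes were called lower, and 11 had a positive interaction (median 0.41, 8 at an unadjusted p under 0.05). Without Paternal_0.3Cyp replicate 8, 2 were called in Paternal_0.3Cyp and the median interaction was 0.32, and without Ctrl replicate 3, 4 were called in Both_0.3Cyp. Calls over all genes, higher and lower together, also fell in these fits. They went from 3961 to 2262 in Paternal_0.3Cyp and from 3202 to 2042 in Both_0.3Cyp. Scn1a, a channel of inhibitory neurons, had 2.73, 8.29 and 9.65 CPM (lowest, median and highest) in Both_0.3Cyp, 1.93, 7.23 and 9.17 CPM in Maternal_0.3Cyp, 2.50, 8.68 and 13.1 CPM in Paternal_0.3Cyp and 7.09, 11.9 and 14.0 CPM in Ctrl. The exposed groups overlapped each other, and 2 of their 36 libraries, both of Paternal_0.3Cyp, exceeded the Ctrl mean. Scn1a fell by 0.52 in Both_0.3Cyp, 0.72 in Maternal_0.3Cyp and 0.51 in Paternal_0.3Cyp, and its interaction was 0.70 ± 0.26 (edgeR adjusted p = 0.106). In the same order of groups, Scn8a, the main channel at the start of the axon, fell by 0.33, 0.36 and 0.29, with an interaction of 0.32 ± 0.13. Nalcn, a sodium leak channel, fell by 0.44, 0.54 and 0.41 in that order, with an interaction of 0.51 ± 0.19. Both_0.3Cyp against Maternal_0.3Cyp was 0.20 for Scn1a (95% interval -0.18 to 0.57) and 0.03 for Scn8a (-0.15 to 0.21).

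Receptor and scaffold genes moved the same way. Among 32 synaptic adhesion and scaffold genes, 22, 24 and 22 were called lower in Maternal_0.3Cyp, Paternal_0.3Cyp and Both_0.3Cyp against Ctrl, and 30 had a positive interaction (median 0.33, 20 at an unadjusted p under 0.05). Over all genes, 12.8%, 12.2% and 11.8% were called lower, and 11.5% had a positive interaction at such a p. Nlgn2, an adhesion protein of inhibitory synapses, had medians of 347 CPM in Both_0.3Cyp, 341 CPM in Maternal_0.3Cyp, 359.7 CPM in Paternal_0.3Cyp and 379.6 CPM in Ctrl, and an interaction of 0.25 ± 0.070. All 36 exposed libraries lay below the Ctrl mean of Nlgn2, as they did for Gria1, an AMPA receptor subunit (interaction 0.37 ± 0.12). Of 16 ionotropic glutamate receptor genes 12, 8 and 9 were called lower, and of 19 GABA receptor and chloride genes 13, 11 and 11. No gene of these lists was called in Both_0.3Cyp against either singly exposed group. With 2 surrogate variables the median interaction was 0.05 for the voltage-gated sodium channels and 0.06 for the synaptic adhesion and scaffold genes.

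Immediate early genes, which neurons and other cells switch on within minutes of a stimulus, lay mostly lower in the exposed groups, though not all of them did. Of 19 tested, 2 were called higher and 6 lower in Maternal_0.3Cyp, 2 and 7 in Paternal_0.3Cyp, and 1 and 9 in Both_0.3Cyp against Ctrl. Over all genes, 10.9%, 15.4% and 10.5% were called higher and 12.8%, 12.2% and 11.8% lower. In each comparison 14 of the 19 had a negative log2 value (medians -0.31, -0.28 and -0.39). Nr4a1, a nuclear receptor of this class whose upstream sequence is given above, had 7.16, 8.86 and 14.5 CPM (lowest, median and highest) in Both_0.3Cyp, 5.63, 7.37 and 12.4 CPM in Maternal_0.3Cyp, 4.65, 7.22 and 12.6 CPM in Paternal_0.3Cyp and 7.58, 11.01 and 13.4 CPM in Ctrl. The median of Both_0.3Cyp lay between the singly exposed groups and Ctrl, and its highest library, replicate 12, was the highest of all 48. Nr4a1 fell by 0.52 after the mother's and by 0.47 after the father's exposure (edgeR adjusted p = 0.00465 and 0.00519), while Both_0.3Cyp had -0.24 ± 0.12 (edgeR adjusted p = 0.14). Its interaction was 0.76 ± 0.17, and 0.69 when Both_0.3Cyp replicate 12 was left out. Egr3, a zinc finger transcription factor, fell in all 3 groups (interaction 0.55 ± 0.17), and Ier2, another early response gene, rose after the single exposures and had 0.21 ± 0.10 in Both_0.3Cyp (interaction -0.49 ± 0.14).

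Other cell types gave mixed counts. Oligodendrocyte precursor genes counted 8, 5 and 8 of 12 called lower in Maternal_0.3Cyp, Paternal_0.3Cyp and Both_0.3Cyp against Ctrl, and striatal neuron genes 8, 8 and 7 of 14. Over all genes, 12.8%, 12.2% and 11.8% were called lower and 10.9%, 15.4% and 10.5% higher in these comparisons. Foxp1, a transcription factor of striatal and cortical neurons that is linked to autism in humans, had medians of 151 CPM in Both_0.3Cyp, 149 CPM in Maternal_0.3Cyp, 148 CPM in Paternal_0.3Cyp and 193 CPM in Ctrl, with all 36 exposed libraries below the Ctrl mean and an interaction of 0.51 ± 0.13. Upper-layer neuron genes counted 5, 6 and 4 of 16 called lower, and deep-layer neuron genes 4, 4 and 5 of 16. Cholesterol synthesis genes had a positive interaction in 24 of 24, with 13, 11 and 8 called lower, among them Dhcr7, which makes the last step (interaction 0.22 ± 0.061). Mest, an imprinted gene expressed from the father's copy, rose in all 3 groups (0.33, 0.35 and 0.33; interaction -0.35 ± 0.11), while over the 30 imprinted genes tested 1 to 3 were called in each direction and the median interaction was 0.02. Tissue that borders the dorsal forebrain also varied: summed choroid plexus genes ranged from 485 to 1132 CPM in Both_0.3Cyp, 203 to 1639 CPM in Maternal_0.3Cyp, 262 to 1732 CPM in Paternal_0.3Cyp and 247 to 1192 CPM in Ctrl, and summed meninges and fibroblast genes from 311 to 999, 295 to 1136, 291 to 1369 and 339 to 922 CPM. Their part in the results was not tested.

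**Figure D4:**
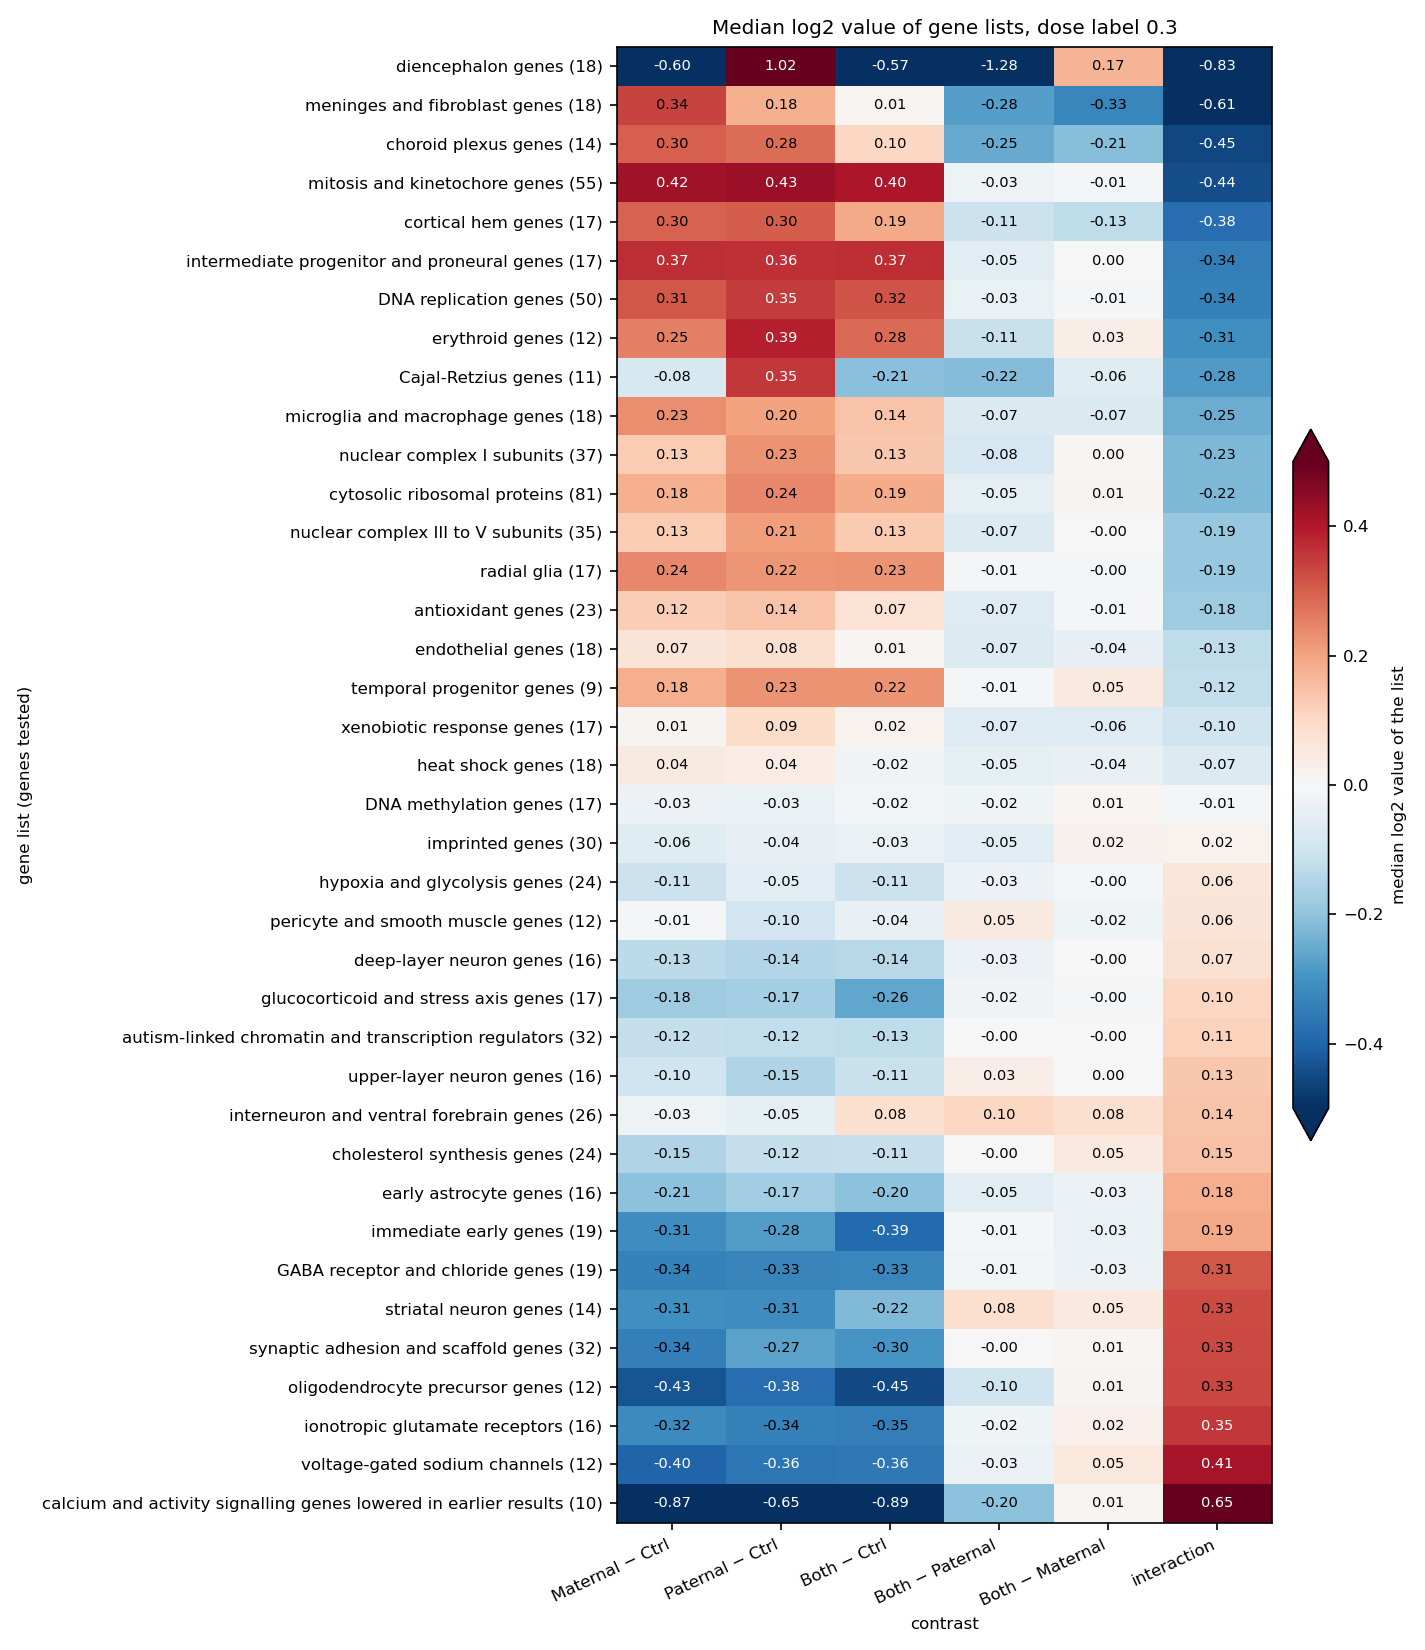
Median log2 value of all 38 gene lists (rows, with the number of genes tested) in each contrast of the factorial (columns), ordered by the interaction median, red for positive and blue for negative medians, with colours at their limit beyond 0.5. The 3 contrasts with Ctrl share its 12 libraries, which enter the interaction with the opposite sign; mitosis and kinetochore genes had 0.42, 0.43, 0.40, -0.03, -0.01 and -0.44 across the columns, whereas diencephalon genes had -0.60, 1.02, -0.57, -1.28, 0.17 and -0.83.

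The genes that did separate the exposed groups were patterning genes of the diencephalon, the brain region next to the dorsal forebrain, and their calls rested on 1 library. In Both_0.3Cyp against Paternal_0.3Cyp the called genes were Irx1 and Irx2, Iroquois homeobox genes that pattern the thalamus and midbrain, and the joint test among the 3 exposed groups called 7 genes (0.0488%; edgeR), among them these, Barhl1, Tfap2b and Pou4f1. Irx2 had 0, 0.183 and 0.665 CPM (lowest, median and highest) in Both_0.3Cyp, 0, 0.161 and 1.20 CPM in Maternal_0.3Cyp, 0.105, 0.504 and 24.4 CPM in Paternal_0.3Cyp and 0, 0.239 and 5.20 CPM in Ctrl. Irx1 had 0.390, 0.853 and 1.43 CPM in Both_0.3Cyp and 0.814, 1.22 and 34.7 CPM in Paternal_0.3Cyp. The highest value belonged each time to Paternal_0.3Cyp replicate 9, whose 18 tested diencephalon genes summed to 700.5 CPM where the group's median was 54.1 CPM. Paternal_0.3Cyp replicates 1, 2, 4 and 6 also lay above every Both_0.3Cyp library. They had 1.24 to 4.39 CPM of Irx2 and 2.48 to 6.1 CPM of Irx1. Both_0.3Cyp against Paternal_0.3Cyp was -2.41 ± 0.46 for Irx1 and -3.72 ± 0.72 for Irx2 (edgeR adjusted p = 0.0137 for each), and -1.10 and -2.06 without replicate 9, at an adjusted p of 1. Without that library 0 genes were called in either test (edgeR; with it 528 genes of the first and 442 of the second had an unadjusted p under 0.05). Of the 18 diencephalon genes 11 were called higher in Paternal_0.3Cyp against Ctrl, where 15.4% of all genes were. After the libraries with raised diencephalon markers were left out, 1 of the 18 was.

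**Figure D5:**
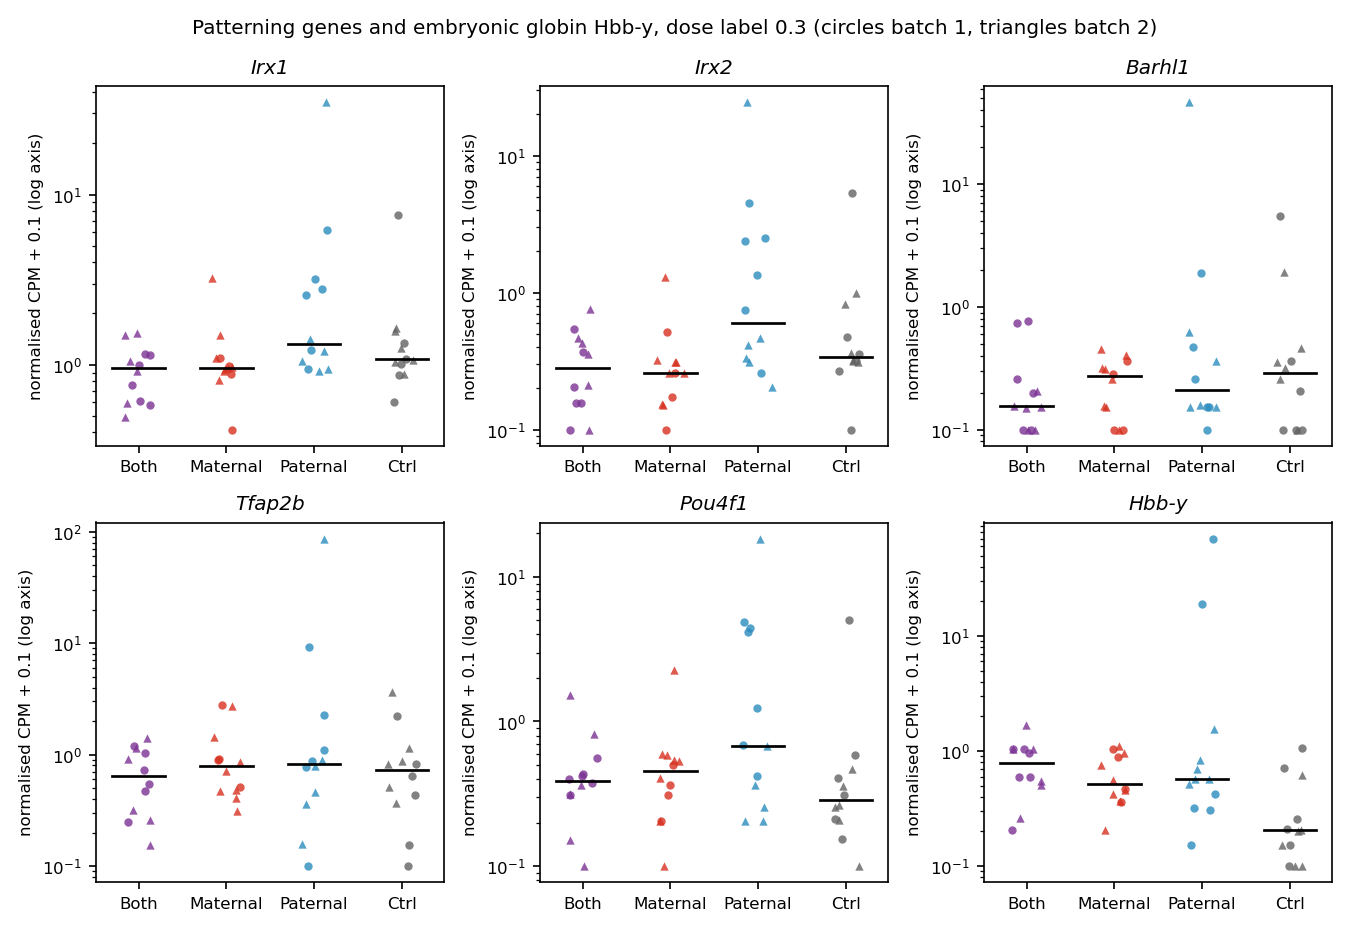
Normalised CPM (plus 0.1, log axis) of 5 diencephalon genes and of the embryonic globin gene Hbb-y in each of the 48 libraries (circles batch 1, triangles batch 2), with the median of each group of 12 as a line. The highest point of Irx1, Irx2, Barhl1, Tfap2b and Pou4f1 is Paternal_0.3Cyp replicate 9, with 34.7 CPM of Irx1; the highest of Hbb-y, 69.7 CPM, is Paternal_0.3Cyp replicate 4.

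Averaged over the other parent's exposure, the mother's exposure called 28 genes (0.195%; 5 or 0.0349% higher and 23 or 0.16% lower, edgeR). The rises were small: Pdpn, the membrane glycoprotein podoplanin, by 0.22 ± 0.049, Dph3, of diphthamide synthesis, by 0.12 ± 0.028, Calu, a calcium-binding protein of the secretory pathway, by 0.10 ± 0.024, Gosr2, of Golgi transport, by 0.09 ± 0.023, and Uqcrc2, a complex III subunit, by 0.09 ± 0.021 (adjusted p from 0.0346 to 0.0442, edgeR quasi-likelihood). Pdpn had medians of 33.7 CPM in Both_0.3Cyp, 33.5 CPM in Maternal_0.3Cyp, 32.2 CPM in Paternal_0.3Cyp and 28.3 CPM in Ctrl. It also rose after the father's exposure alone (0.24 ± 0.070), and Both_0.3Cyp against Paternal_0.3Cyp was 0.08 ± 0.069. Slc24a2, a sodium, calcium and potassium exchanger of neurons, fell by 0.57 ± 0.11, with medians of 3.60 CPM in Both_0.3Cyp, 4.07 CPM in Maternal_0.3Cyp, 4.68 CPM in Paternal_0.3Cyp and 6.49 CPM in Ctrl. Nwd2, expressed highest in Ctrl replicate 3, fell by 0.70 ± 0.17. The other falls named were Irx1, Irx2 and Barhl1, whose highest library was Paternal_0.3Cyp replicate 9. Without that library 1 gene was called, and without Paternal_0.3Cyp replicate 8 there were 2864, so that the count rested on single libraries. It changed more than 1.5-fold in 29 of the 48 fits that each left out 1 library. The 5 rises were called in 26 (Gosr2 and Uqcrc2) to 33 (Pdpn) of those fits. Among the falls, Nwd2 was called in 24, Irx1 in 44, Irx2 and Barhl1 in 46 and Slc24a2 in 47.

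The father's exposure, averaged in the same way, called 0 genes (edgeR, lowest adjusted p = 0.0859; 3391 genes at an unadjusted p under 0.05; 241 calls by DESeq2 and 372 by limma), and 563 without Paternal_0.3Cyp replicate 9. The genes of lowest p were Fchsd2, a membrane trafficking adaptor (-0.13 ± 0.028), Btbd17 (0.26 ± 0.057), Dnajb3, a chaperone partner (0.29 ± 0.063), Jmjd7, a lysyl hydroxylase (0.27 ± 0.060), and Prmt6, an arginine methyltransferase of histones (0.12 ± 0.028). All 36 exposed libraries lay below the Ctrl mean of Fchsd2, with medians of 125.5 CPM in Both_0.3Cyp, 130.5 CPM in Maternal_0.3Cyp, 130.1 CPM in Paternal_0.3Cyp and 146 CPM in Ctrl. Rassf9 differed from the other genes: its medians were 2.10 CPM in Both_0.3Cyp, 2.72 CPM in Maternal_0.3Cyp, 1.78 CPM in Paternal_0.3Cyp and 2.57 CPM in Ctrl, and it fell by 0.51 ± 0.14 in Paternal_0.3Cyp with 0.04 ± 0.13 in Maternal_0.3Cyp. Cirbp, a cold-inducible RNA-binding protein, had its highest median in Both_0.3Cyp, 155 CPM, against 129 CPM in Maternal_0.3Cyp, 139 CPM in Paternal_0.3Cyp and 131 CPM in Ctrl, and an interaction of 0.04 (95% interval -0.16 to 0.25).

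The interaction in male minus female embryos had 0 called genes (edgeR, lowest adjusted p = 0.464; 1531 at an unadjusted p under 0.05; 0 by DESeq2 and by limma), and its 95% interval lay within 0.5 of 0 for 31.6% of genes. The median standard error was 0.21 on the log2 scale. All 37 nuclear complex I subunits had a lower interaction in male embryos (median -0.40, against -0.04 over all genes), and 31 of 32 autism-linked chromatin and transcription regulators a higher one (median 0.36). Paternal_0.3Cyp replicate 8, highest in complex I subunits, was male, and its part in this was not tested. The remaining 28 libraries of the series form the same exposures at the dose labelled 10, 10 of Both_10Cyp, 8 of Maternal_10Cyp and 10 of Paternal_10Cyp. The interaction at dose 0.3 minus that at dose 10, in which Ctrl cancels, had 3 called genes (0.0209%), Timm29 and Rpgr higher (0.0139%) and Mcc lower (0.00697%; edgeR; 1465 at an unadjusted p under 0.05).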

How the data were processed

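Reads were trimmed with Trim Galore 0.5.0 and quantified with Salmon 1.10.1 on mm10, per the submitters' processing notes. The deposited values are estimated counts per gene, stored as whole numbers, in 1 table of 14823 genes, 14810 of them with a symbol; how genes were chosen for the table is not given in the sources used here. Columns were matched to libraries by their description and to groups by title, per the labels. edgeR 4.0.16 (R 4.3.3) fitted a robust quasi-likelihood model, normalised by trimmed means, to the 76 libraries together; its terms were group, batch and sex, after 484 genes of low counts were left out. Calls needed an adjusted p (Benjamini-Hochberg) below 0.05. Alternatives were DESeq2 1.42.0, limma 3.58.1, surrogate variables (sva 3.50.0), other covariates, each batch alone and leaving out libraries. Levels are normalised CPM.

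Named genes were the 10 of lowest interaction p (mean of at least 1 CPM), up to 5 per direction for averaged effects, up to 5 for the other tests, and up to 3 per gene list. Members and lists were chosen with earlier results of these data known. The interaction fit was also run on simulated counts, drawn for each library separately. These held no litters and no libraries that stood apart, so they cannot show how the fit fares with either. No 2 libraries of a group were identical (smallest chi-square per gene 4.03). Nothing in the labels says which embryos came from separate litters, so p-values measure the spread between these samples. Some genes that the naming rule picked are not reported here.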

Additional observations from a re-analysis of the deposited data

Results flagged for a closer look

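For 3 genes the interaction differed between doses 0.3 and 10 by a test of the difference itself (edgeR). For Timm29, of mitochondrial protein import, the difference, dose 0.3 minus dose 10, was 0.25 ± 0.049 (adjusted p = 0.0339), with an interaction of 0.02 at dose 0.3 and of -0.22 at dose 10. For Mcc it was -1.23 ± 0.25 (adjusted p = 0.0339), with -0.04 at dose 0.3 and 1.19 at dose 10; its mean level was 7.33 CPM in Both_10Cyp, 4.71 CPM in Maternal_10Cyp and 4.85 CPM in Paternal_10Cyp, against 7.09 CPM in Ctrl. For Rpgr, of the photoreceptor cilium, it was 0.38 ± 0.079 (adjusted p = 0.0466), with 0.12 and -0.26. In batches 1 and 2 the difference was 0.21 and 0.30 for Timm29, -1.05 and -1.42 for Mcc, and 0.28 and 0.43 for Rpgr.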

How the results depend on the processing

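The counts of called genes moved as follows, where globin-rich and diencephalon-rich libraries are those named in the report and their like at dose 10. For the interaction, edgeR called 1 gene with DESeq2 size factors, 1 without the filter on low counts and 1 with batch 2 alone, limma on the linear scale called 2, DESeq2 410 and limma with quality weights 773; 1138 had an adjusted p under 0.10, a limit chosen after seeing the data. Maternal_0.3Cyp against Ctrl had 0 calls with 2 surrogate variables, 170 with the globin ratio as a covariate and 0 with batch 1 alone. Paternal_0.3Cyp against Ctrl had 0, 44 and 4 under those settings, 1313 with batch 2 alone, 2028 without the globin-rich libraries and 2070 without the diencephalon-rich ones. Both_0.3Cyp against Ctrl had 0, 10 and 0, 1323 with batch 2 alone and 5290 by limma. Both_0.3Cyp against Paternal_0.3Cyp had 4 calls without the filter, 4 without the batch term, and 0 by limma, with only the 4 groups, with 2 surrogate variables, with either batch alone and without the diencephalon-rich libraries. The averaged mother's exposure had 243 by DESeq2, 4165 by limma, 6 with only the 4 groups, 12 without the batch term, 2 with 2 surrogate variables, 6 with the globin ratio, 0 and 548 with batch 1 and batch 2 alone, 2625 and 13 without the globin-rich and the diencephalon-rich libraries, and 693 at an adjusted p under 0.10. The averaged father's exposure had 241 by DESeq2, 372 by limma, 1 with 2 surrogate variables and 463 at an adjusted p under 0.10. The test among exposed groups had 18 without the filter, 0 by limma, with only the 4 groups, with 2 surrogate variables, with batch 1 alone and without the diencephalon-rich libraries, 2 with batch 2 alone and 4 without the globin-rich ones. The dose difference had 25 by DESeq2 and 2069 by limma. It had 0 when batch was no term, with batch 1 alone and without the diencephalon-rich libraries, 7 with 2 surrogate variables, 5 with the globin ratio, 1 with batch 2 alone and 106 without the globin-rich ones. The causes were not tested.

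With the replicate number as a block, 0 genes were called for the interaction, 3244, 4384 and 3667 for Maternal_0.3Cyp, Paternal_0.3Cyp and Both_0.3Cyp against Ctrl, 0 for both contrasts of Both_0.3Cyp with a singly exposed group, 18 and 912 for the averaged mother's and father's exposure, and 0 among exposed groups, for the dose difference and for the sex difference. The numbers were not taken to pair the samples, since only 39 of 72 same-number pairs had a correlation of deviations above 0.1 (median 0.12, lowest -0.28, highest 0.48; median -0.02 for pairs of different number), and 7 libraries correlated best with their own number.

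Leaving out each library in turn gave 0 to 1166 calls for the interaction, 2166 (without Ctrl replicate 7) to 4607 for Maternal_0.3Cyp against Ctrl, 2262 (without Paternal_0.3Cyp replicate 8; 2592 without replicate 4) to 4960 for Paternal_0.3Cyp against Ctrl, 2042 (without Ctrl replicate 3; 2089 without replicate 7) to 4401 for Both_0.3Cyp against Ctrl, 0 to 3 for Both_0.3Cyp against Paternal_0.3Cyp, 0 for Both_0.3Cyp against Maternal_0.3Cyp, 1 to 2864 and 0 to 563 for the averaged mother's and father's exposure, 0 to 8 among exposed groups and 0 to 399 (without Paternal_0.3Cyp replicate 8) for the dose difference. It was not run for the sex difference. The interaction of single genes changed sign for Lhfpl3 (-0.0008) and Vtn (0.15) with 2 surrogate variables, for Flt1 (-0.22) and Cspg4 (-0.025) with batch 1 alone, and for Hba-x with 2 surrogate variables (0.54) and with the globin ratio (0.10). Of the other values of single genes, 8299 kept direction and call, 430 gained a call and 245 lost one. With 12 embryos a group, the median standard error of the interaction, 0.11 on the log2 scale, limits what could be detected.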

Other observations

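Interneuron and ventral forebrain genes lay mostly above the singly exposed groups in Both_0.3Cyp, with no gene called. Of 26 tested, 21 were higher in Both_0.3Cyp than in Paternal_0.3Cyp (median 0.10 on the log2 scale, against -0.02 over all genes) and 21 higher than in Maternal_0.3Cyp (median 0.08, against -0.002). Against Ctrl, 14 were higher and 12 lower in Both_0.3Cyp (median 0.08). Their summed level had medians of 1911 CPM in Both_0.3Cyp, 1835 CPM in Maternal_0.3Cyp, 1808 CPM in Paternal_0.3Cyp and 1921 CPM in Ctrl, so that Both_0.3Cyp lay near Ctrl. Early astrocyte genes counted 6, 5 and 7 of 16 called lower in Maternal_0.3Cyp, Paternal_0.3Cyp and Both_0.3Cyp against Ctrl (edgeR), where 12.8%, 12.2% and 11.8% of all genes were called lower. Genes of the cortical hem, the signalling centre at the edge of the cortex, counted 4, 6 and 1 of 17 called higher, where 10.9%, 15.4% and 10.5% of all genes were.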
